A study of Homo sapiens with 12 samples.

Results

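The 9 genes examined here encode the first steps of branched-chain amino acid catabolism: BCAT1, BCAT2, BCKDHA, BCKDHB, DBT, DLD, BCKDK, PPM1K and IVD. The set was chosen by the low level of BCAT1 in Rego-resistant against control SNU449 cells, and the other names were added as genes of the same pathway. Of the 9 names, 8 were among the 15601 genes of the table over all 12 libraries, and BCKDHA was not listed in the tables used. Because BCAT1 was selected on the Rego contrast in SNU449, the values of the members in that contrast, and in any contrast that contains it, are given as a description with no test.

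SNU449 is an established human hepatocellular carcinoma line of mesenchymal-like type, and SNU449-Axl- is its derivative that lacks the receptor tyrosine kinase Axl after CRISPR/Cas9 editing. Each was kept untreated (control, naive) or made resistant to the multikinase inhibitor Regorafenib (Rego) by stepwise increases up to 2 times its IC50, with Rego given again after every splitting. Each of the 4 groups was 1 cell population measured in 3 libraries, technical replicates prepared by QuantSeq, which reads the 3′ end of each transcript. The p-values below therefore measure the spread between libraries of 1 population and not the spread between independently derived populations.

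The values are the library values that the authors deposited, 2 raised to the variance-stabilized expression level. Genes with almost no reads sit near 21 on this scale and not at 0, which compresses differences at the low end. Differences are given as log2(value + 1) and were tested with limma over all genes. The call threshold was a Benjamini-Hochberg adjusted p of 0.05. The depth of each library was unknown, since the values are not counts.

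Branched-chain aminotransferases move the amino group of leucine, isoleucine or valine to 2-oxoglutarate, which yields glutamate and a branched-chain keto acid. The branched-chain keto acid dehydrogenase complex then commits the carbon skeleton to oxidation, and it is switched off by the kinase BCKDK and on by the phosphatase PPM1K. Normal hepatocytes have little aminotransferase activity and much dehydrogenase activity, and BCAT1 is low in adult liver but expressed in several tumour types.

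The labelled cell type was checked against its markers. Of 5 mesenchymal-like markers, 5 were listed, and VIM lay between 13759 and 27044 in the 12 libraries. FN1 was at 1437 to 2923 in SNU449 control, 336 to 650 in SNU449 Rego-resistant, 377 to 559 in SNU449-Axl- control and 1351 to 4850 in SNU449-Axl- Rego-resistant cells. In the same order of groups SPARC was at 934 to 2122, 897 to 1147, 707 to 1017 and 574 to 1007, and CDH2 at 381 to 550, 262 to 465, 221 to 778 and 209 to 378. ZEB1 lay between 110 and 220 in all groups. Of 9 hepatocyte markers, 3 were listed (APOA1, AFP and FGB), and ALB and HNF4A were not. FGB stood at 189 to 547 in SNU449-Axl- Rego-resistant cells and at 16 to 72 in the other groups. AFP was at 29 to 37 in SNU449-Axl- Rego-resistant, 33 to 39 in SNU449-Axl- control and 20 to 27 in SNU449 cells, and APOA1 lay between 19 and 31 throughout. KRT8 and KRT18 were listed among 5 epithelial markers, whereas CDH1, EPCAM and KRT19 were not. KRT8 was at 133 to 216 in SNU449, 276 to 320 in SNU449-Axl- control and 439 to 542 in SNU449-Axl- Rego-resistant cells, and KRT18 lay between 667 and 1592. The part of these marker differences in the results below was not tested. Among 3 leukocyte markers, PTPRC at 19 to 31 and CD68 at 23 to 45 were listed, and none of 3 endothelial markers was.

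AXL itself stood at 727, 941 and 715 in SNU449 control, at 1237, 815 and 1271 in SNU449 Rego-resistant, at 35, 53 and 33 in SNU449-Axl- control and at 50, 38 and 52 in SNU449-Axl- Rego-resistant cells. Thus all 6 SNU449-Axl- libraries lay below all 6 SNU449 libraries. The log2 difference was -4.29 ± 0.235 (SE, n = 3 per group) in control cells and -4.52 ± 0.235 in Rego-resistant cells, with limma Benjamini-Hochberg adjusted p of 2.16e-09 and 1.27e-09. The position of the edit relative to the 3′ reads was not analysed here.

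BCAT1, the cytosolic aminotransferase (ENSG00000060982.15, GRCh38 chromosome 12, 24810024 to 24949101, minus strand), was abundant in 1 of the 4 groups. Its values were 678, 565 and 426 in SNU449 control and 31, 28 and 42 in SNU449 Rego-resistant cells. In SNU449-Axl- cells they were 20, 23 and 21 in control and again 20, 23 and 21 in Rego-resistant libraries. Thus the 3 SNU449 control libraries stood far above the other 9. The SNU449 Rego-resistant libraries came next and did not overlap with either SNU449-Axl- group, and the SNU449-Axl- groups could not be ordered. On the log2 scale the group means were 9.10 ± 0.337 (SD, n = 3) in SNU449 control, 5.09 ± 0.296 in SNU449 Rego-resistant and 4.48 ± 0.0978 in each SNU449-Axl- group. The SNU449-Axl- groups held the same 3 values near the lowest level, so their SD is not read as a measured spread between libraries. In bulk RNA, fewer cells with the transcript and less transcript per cell cannot be told apart.

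The size of this difference is bounded by the scale. The lowest group mean of any gene was 20.9, so both SNU449-Axl- groups lay at the bottom of the range. Across all genes, those with a mean value of 426 to 678 had a median mean normalized count of 516 by the authors' normalization (765 genes). The median was 6.71 for the 2806 genes between 28 and 42, and 1.3 for the 438 genes between 23 and 25. These counts describe other genes at the same level and are not counts of BCAT1 per library. BCAT1 was listed in the 3 tables of pairs that include SNU449 control and was not listed in the other 3.

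The Rego contrast compared resistant cells kept under Rego with untreated control cells. Acquired resistance and the presence of the drug therefore cannot be told apart, and a Rego effect here names this difference between groups. In SNU449, BCAT1 differed by -4.00 on the log2 scale, a fold of 0.0624 on this scale. This was rank 6 among the falls of all 15601 genes. The same difference was -3.29 in the table of that pair and -3.51 with a pseudocount of 16. In SNU449-Axl- cells the log2 difference was 0. Since both of these groups lay at the lowest level of the scale, a decrease could not have been detected there, and nothing is read from a test of it.

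Comparing SNU449-Axl- with SNU449 sets an edited population against its parent line. Loss of Axl and other differences that came with deriving the edited cells cannot be told apart, and Axl loss here names this comparison. In control cells BCAT1 differed by -4.62 (fold 0.0407), rank 2 among the falls, and in Rego-resistant cells by -0.62 (fold 0.653). The former was -3.79 in the table of the pair, -3.91 with a pseudocount of 16 and -4.28 with spike-in centring. The latter was -0.14 with spike-in centring, -0.40 with a pseudocount of 16 and between -0.78 and -0.38 over left-out libraries. Spike-in centring raised all genes by 0.335 in the former comparison and by 0.473 in the latter. That shift also moves values at the lowest level, such as those of BCAT1 in SNU449-Axl- cells. Both comparisons share libraries with the contrast that selected BCAT1, so neither was tested. The Rego-resistant SNU449 cells and the SNU449-Axl- cells thus had in common a low BCAT1 level relative to SNU449 control, with values of 28 to 42 and of 20 to 23. Rego-resistant SNU449 cells kept AXL at 815 to 1271 while BCAT1 was low.

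The identical triplets of BCAT1 in the SNU449-Axl- groups were also seen for other genes. The same value in both SNU449-Axl- groups for each replicate number occurred for 46 genes. Of these, 3 had a mean above 100 in SNU449 control: BCAT1 at 556.3, PLPP4 at 147.3 and COLEC10 at 101.3. These genes were singled out after their values were seen.

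**Figure D1:**
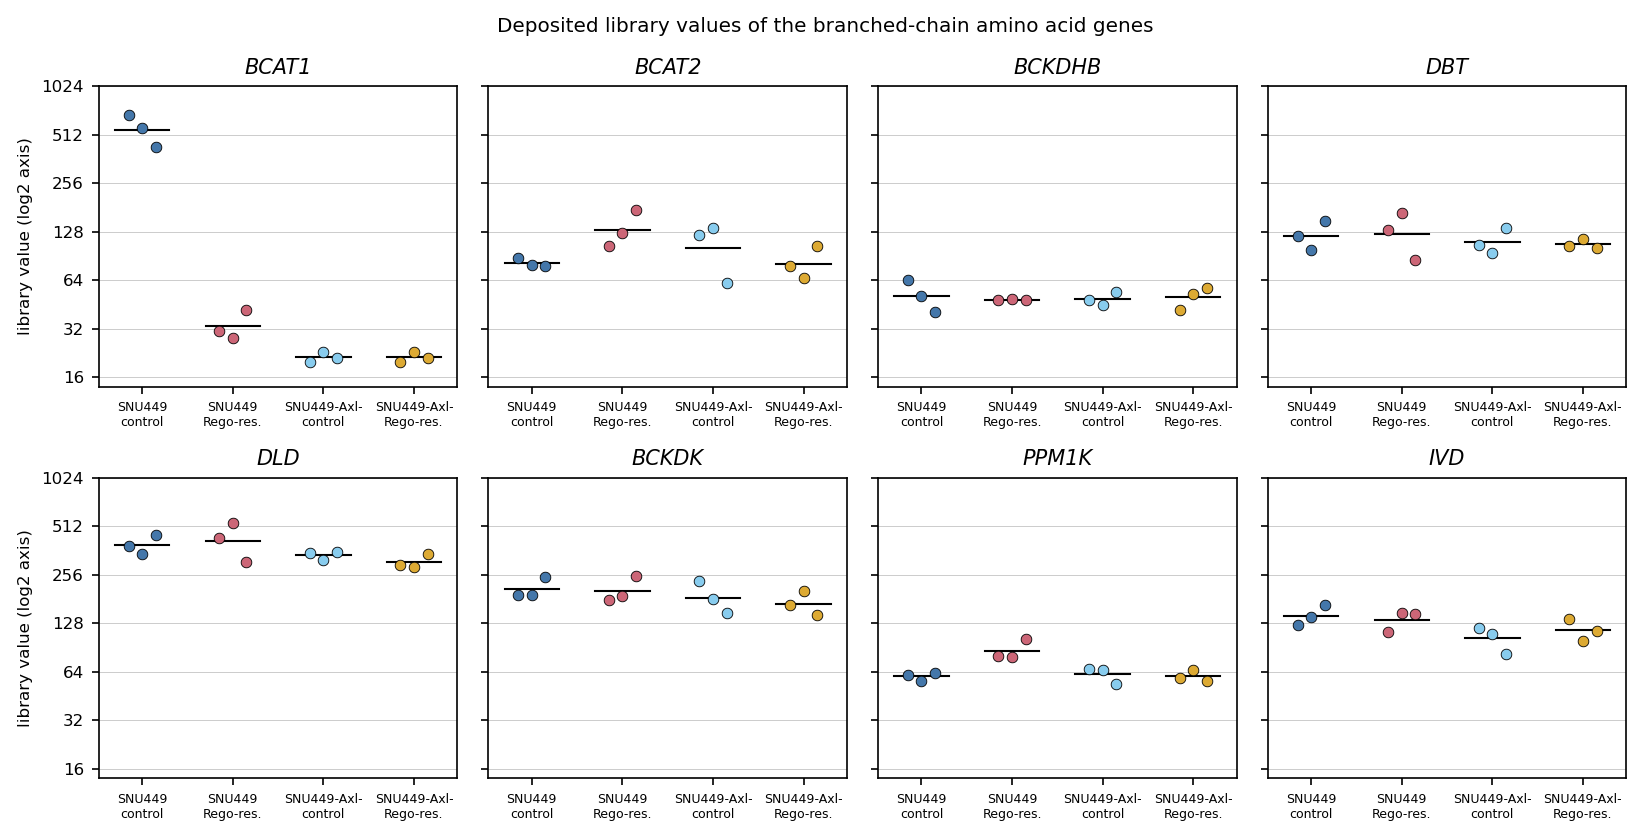
Library values of the 8 listed genes on a log2 axis, with 1 point per library in SNU449 control, SNU449 Rego-resistant, SNU449-Axl- control and SNU449-Axl- Rego-resistant cells and a bar at each group mean. BCAT1 stood at 426 to 678 in SNU449 control and at 20 to 42 elsewhere, whereas most other genes overlapped between groups.

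The BCAT1 promoter is shown because the transcript was near the lowest level in 3 of the 4 groups. The RefSeq promoter window (GRCh38.p14, chr12:24949052-24949351, minus strand, 300 bases) reads 5′ to 3′, with a match to TGATGNAA and the E-box CACGTG in capitals:
BCAT1: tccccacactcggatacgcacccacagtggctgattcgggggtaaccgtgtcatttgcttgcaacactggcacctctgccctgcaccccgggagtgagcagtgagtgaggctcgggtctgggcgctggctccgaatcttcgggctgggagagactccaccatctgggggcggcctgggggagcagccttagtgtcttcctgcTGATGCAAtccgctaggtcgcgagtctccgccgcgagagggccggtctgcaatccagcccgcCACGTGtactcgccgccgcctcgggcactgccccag
The capitals mark bases 203 to 210 and bases 265 to 270. The E-box, a letter pattern bound by MYC and related factors and the same on both strands, occurred in 2548 of 35116 promoters of this length (7.26%). TGATGNAA, read on both strands, is the core letter pattern of amino acid response elements and occurred in 1270 (3.62%). It was chosen after the sequence had been seen. Neither pattern overlapped the other, and of the 8 members with a promoter entry, BCAT1 was the 1 that held either. The window held 23 CG dinucleotides against a median of 14, and 35.8% of promoters had as many. A match of letters is a description and not a binding site. BCAT2 had no entry.

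BCAT2, the mitochondrial aminotransferase (chromosome 19, 48795062 to 48811029, minus strand), did not share the pattern of BCAT1. Its values were 88, 80 and 79 in SNU449 control and 104, 125 and 174 in SNU449 Rego-resistant cells. In SNU449-Axl- cells they were 123, 135 and 62 in control and 78, 66 and 104 in Rego-resistant libraries. The SNU449 Rego-resistant libraries all lay above SNU449 control, whereas the SNU449-Axl- groups overlapped with each other, with a wide spread in control (SD 0.606 on the log2 scale, the widest of any member in any group). The log2 difference with Rego was 0.67 in SNU449, not tested, and -0.31 ± 0.274 in SNU449-Axl- (limma Benjamini-Hochberg adjusted p = 0.596). The difference of these effects was 0.98, not tested. Axl loss gave 0.29 in control cells (limma adjusted p = 0.605) and -0.69 in Rego-resistant cells (95% interval -1.26 to -0.11, limma adjusted p = 0.183). In the separate table of that pair, the last difference was -0.47 and passed the threshold (limma adjusted p = 0.0357), where values of 178, 199 and 193 in SNU449 faced 146, 130 and 135 in SNU449-Axl- Rego-resistant cells. In the 12 fits that left out 1 library, this difference ran from -0.92 to -0.42 (limma adjusted p between 0.0621 and 0.553). Spike-in centring raised each difference with Axl loss in Rego-resistant cells by 0.473.

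The branched-chain keto acid dehydrogenase complex consists of E1 (BCKDHA and BCKDHB), E2 (DBT) and E3 (DLD, which also serves other 2-oxo acid dehydrogenases). BCKDHB (chromosome 6, 80106647 to 80346270) stood at 64, 51 and 41 in SNU449 control, 48, 49 and 48 in SNU449 Rego-resistant, 48, 45 and 54 in SNU449-Axl- control and 42, 53 and 57 in SNU449-Axl- Rego-resistant cells. All 4 groups overlapped, and its log2 differences ran from -0.08 to 0.06 over the Rego and Axl comparisons (limma adjusted p between 0.903 and 0.949 where tested). DBT (chromosome 1, 100186919 to 100249834) stood at 121, 98 and 150 in SNU449 control, 132, 168 and 86 in SNU449 Rego-resistant, 106, 94 and 135 in SNU449-Axl- control and 105, 115 and 102 in SNU449-Axl- Rego-resistant cells. These groups overlapped as well. The DBT difference was 0.03 with Rego in SNU449 (not tested), -0.04 ± 0.243 with Rego in SNU449-Axl- (limma adjusted p = 0.956), -0.13 with Axl loss in control cells (limma adjusted p = 0.818) and -0.21 in Rego-resistant cells (limma adjusted p = 0.721).

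DLD (chromosome 7, 107891162 to 107931730) was measured at 384, 345 and 452 in SNU449 control and 429, 538 and 307 in SNU449 Rego-resistant cells. In SNU449-Axl- cells it was at 348, 317 and 352 in control and 293, 285 and 344 in Rego-resistant libraries. Each pair of groups compared here overlapped. The log2 difference in DLD was 0.08 with Rego in SNU449 (not tested) and -0.14 ± 0.211 in SNU449-Axl- (limma adjusted p = 0.777). For Axl loss it was -0.21 in control cells (limma adjusted p = 0.637) and -0.43 in Rego-resistant cells (95% interval -0.876 to 0.0102, limma adjusted p = 0.287).

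The regulators of the complex are a kinase and a phosphatase. The kinase BCKDK (chromosome 16, 31106107 to 31112791) stood at 191, 191 and 246 in SNU449 control, 179, 189 and 250 in SNU449 Rego-resistant, 233, 180 and 149 in SNU449-Axl- control and 166, 203 and 144 in SNU449-Axl- Rego-resistant cells. Its groups overlapped, and its log2 differences lay between -0.27 and -0.03 (limma adjusted p between 0.589 and 0.825 where tested). The phosphatase PPM1K (chromosome 4, 88257620 to 88284769, minus strand) had values of 61, 56 and 63 in SNU449 control and 80, 79 and 102 in SNU449 Rego-resistant cells. In SNU449-Axl- cells it had 67, 66 and 54 in control and 59, 66 and 56 in Rego-resistant libraries. The SNU449 Rego-resistant libraries lay above all 9 others, which overlapped among themselves. The PPM1K difference with Rego was 0.52 in SNU449 (not tested) and -0.04 ± 0.191 in SNU449-Axl- (limma adjusted p = 0.939). With Axl loss it was 0.05 in control cells (limma adjusted p = 0.924) and -0.51 ± 0.191 in Rego-resistant cells (95% interval -0.916 to -0.112, limma adjusted p = 0.146). The last value passed the threshold without the replicate number in the model (limma adjusted p = 0.0428). The deposited values were already centred by replicate number. A fit that does not count the degrees of freedom this used gives p-values that are too low.

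IVD, isovaleryl-CoA dehydrogenase of the leucine branch (chromosome 15, 40405485 to 40435947), had values of 124, 140 and 167 in SNU449 control and 113, 149 and 145 in SNU449 Rego-resistant cells. In SNU449-Axl- cells the values were 120, 110 and 83 in control and 136, 100 and 114 in Rego-resistant libraries. SNU449-Axl- control lay below SNU449 control in all libraries, and the other pairs of groups compared here overlapped. The log2 difference of IVD with Axl loss was -0.46 ± 0.213 in control cells (95% interval -0.911 to -0.0172, limma adjusted p = 0.213) and -0.22 in Rego-resistant cells (limma adjusted p = 0.661). With Rego it was -0.08 in SNU449 (not tested) and 0.17 in SNU449-Axl- (limma adjusted p = 0.741).

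The members are set side by side with all genes here. With Rego in SNU449, 2 of the 8 had all libraries above control (BCAT2 and PPM1K) and 1 had all below (BCAT1). Over all genes, 27.9% did not overlap between these groups in either direction. With Rego in SNU449-Axl-, 0 of 8 did so, against 29.1% of all genes. In that contrast limma called 0 of the 7 members other than BCAT1, which lay at the lowest level, and 0 had an unadjusted p under 0.05. Of all genes, 4.35% were called and 18.6% had such an unadjusted p. With Axl loss, 2 of 8 had all libraries lower in control cells (BCAT1 and IVD, against 27.9% of all genes in either direction) and 2 of 8 in Rego-resistant cells (BCAT1 and PPM1K, against 28%). Limma called 0 of the 7 tested members in control cells (7.45% of all genes), where 1 member and 21.5% of all genes had an unadjusted p under 0.05, and 0 of 7 in Rego-resistant cells (4.37% of all genes), where 2 members and 18.2% of all genes did. The median log2 difference of the 8 members was 0.00 with Rego in SNU449, -0.04 with Rego in SNU449-Axl-, -0.15 with Axl loss in control cells and -0.35 with Axl loss in Rego-resistant cells. The medians over all genes were -0.000102, 0.0066, 0.0035 and 0.0139. Centring on the spike-in RNAs raised the median of all genes by 0.194 for Rego in SNU449-Axl- and by 0.335 and 0.473 in the Axl comparisons. With it the sign of 12 uncalled member differences turned, 4 in each of these 3 comparisons, so no direction is read from those. With 7 or 8 members, nothing particular to them is read from these counts.

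**Figure D2:**
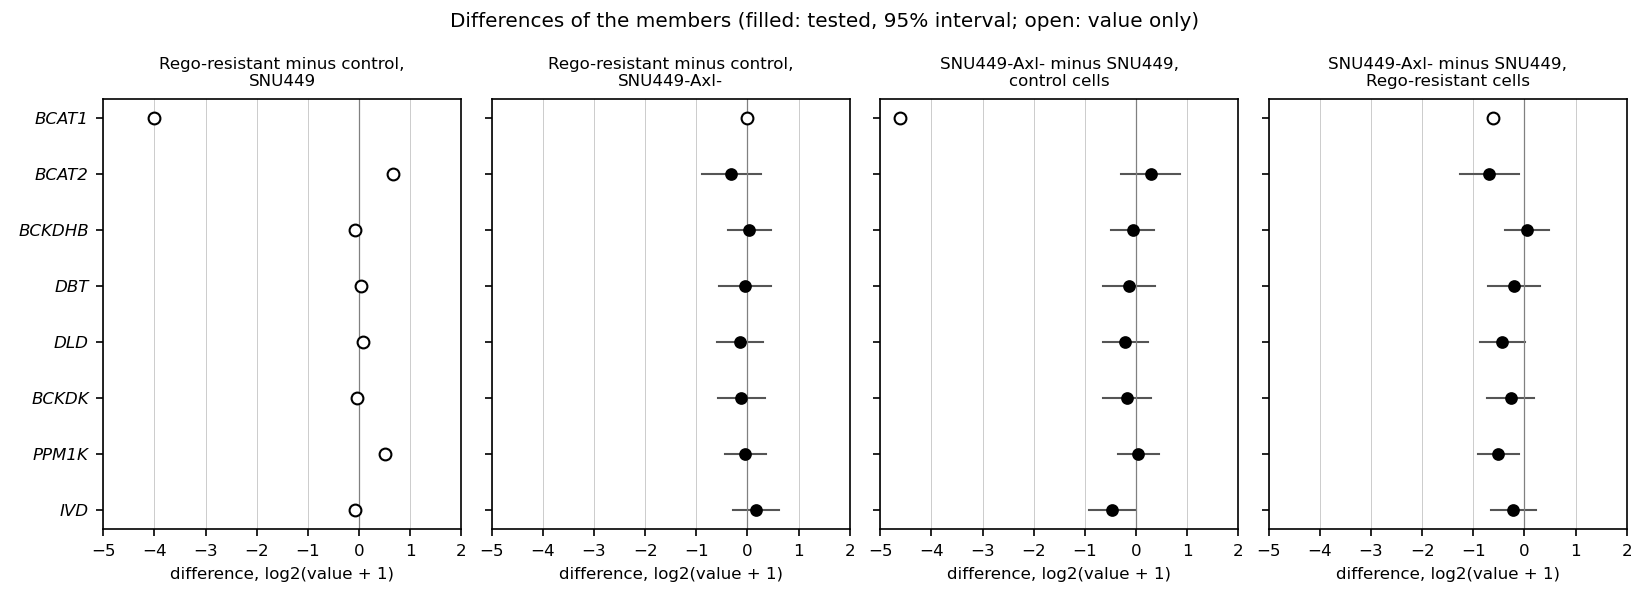
Differences of the 8 listed genes in log2(value + 1) for Rego in SNU449, Rego in SNU449-Axl-, Axl loss in control cells and Axl loss in Rego-resistant cells, with filled points and 95% intervals where a test is read and open points where none is. BCAT1 lay at -4.00 and -4.62 in the contrasts with SNU449 control and at 0 between the SNU449-Axl- groups, and the other genes lay between -0.69 and 0.67.

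A wider set of 61 genes around the pathway, in 5 lists, was examined next, of which 57 were listed. SLC7A8, SLC6A15, AMT and SESN3 were not listed in the tables used. With Rego in SNU449, 2 of the 57 were called higher and 3 lower (8.77%), against 7.81% of all genes. With Rego in SNU449-Axl-, 2 were higher and 1 lower (5.26%), against 4.35%. With Axl loss 4 were higher and 5 lower in control cells (15.8%), against 7.45%. In Rego-resistant cells limma called 0, against 4.37%. In the test of whether the Rego effect differed between SNU449 and SNU449-Axl-, 3 were called higher and 4 lower in SNU449 (12.3%), against 5.87% of all genes. Of these 24 calls, 6 held in each of the 12 fits that left out 1 library and under each alternative in which the difference was tested. The other 18 were lost in at least 1 fit that left out 1 library. The 6 were SLC43A2 with Rego in SNU449, IDH2 with Axl loss in control cells, RRAGC in the difference of the Rego effects, and PDK1 in each of these comparisons. The PDK1 calls share the SNU449 control libraries and are not independent. No direction of the 24 calls reversed. At a mean normalized count of at least 50, 46 of the 57 genes were tested, and SLC43A2 was not among them. With this filter 8.7% of the list was called with Rego in SNU449, against 9.11% of all genes, and 6.52% in SNU449-Axl-, against 6%. With Axl loss the shares were 19.6% in control cells, against 9.61%, and 0% in Rego-resistant cells, against 5.5%. For the difference of the Rego effects the share was 13%, against 7.96%.

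An unadjusted p under 0.05 was found in this set for 28.1% of the genes with Rego in SNU449 (21.3% of all genes) and 26.3% in SNU449-Axl- (18.6%). With Axl loss it was 21.1% in control cells (21.5% of all genes) and 19.3% in Rego-resistant cells (18.2%), and for the difference of the Rego effects 22.8% (19.4%). In Rego-resistant cells the alternatives gave calls with Axl loss: 14 with spike-in centring (24.6%, against 31.9% of all genes), 5 with no replicate block (8.77%, against 9.63%) and 3 in the table of the pair (5.26%, against 8.19%). The fit with no replicate block gives p-values that are too low, since the values were already centred by replicate number. With spike-in centring those 14 were all higher, and of all genes 4927 were called higher and 49 lower. The same centring gave 6 higher and 0 lower with Rego in SNU449-Axl- (669 and 89 of all genes), 8 and 3 with Axl loss in control cells (2307 and 161), and 0 and 3 for the difference of the Rego effects (204 and 438).

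Of 16 listed enzymes downstream of the branched-chain acyl-CoAs, limma called 0 with Rego in SNU449, against 7.81% of all genes, where 3 had an unadjusted p under 0.05, against 21.3% of all genes, and the median log2 difference was 0.02. With Rego in SNU449-Axl- 1 was called, against 4.35%, with Axl loss in control cells 2, against 7.45%, and with Axl loss in Rego-resistant cells 0, against 4.37%, where 1 had an unadjusted p under 0.05, against 18.2% of all genes. HSD17B10, which acts in the isoleucine branch, stood at 236, 237 and 260 in SNU449 control, 272, 261 and 244 in SNU449 Rego-resistant, 459, 481 and 358 in SNU449-Axl- control and 201, 199 and 261 in SNU449-Axl- Rego-resistant cells. SNU449-Axl- control lay above all other libraries. The log2 difference of HSD17B10 was -0.97 ± 0.19 with Rego in SNU449-Axl- (limma Benjamini-Hochberg adjusted p = 0.00613) and 0.81 ± 0.19 with Axl loss in control cells (limma adjusted p = 0.0128), and the Rego effects differed by 1.05 (limma adjusted p = 0.0253). PCCB, a subunit of propionyl-CoA carboxylase, stood at 122, 110 and 114 in SNU449 control and at 185, 184 and 220 in SNU449-Axl- control, without overlap. Its log2 difference was 0.76 ± 0.185 (limma adjusted p = 0.0161). Leaving out replicate 2 of SNU449-Axl- control gave an adjusted p of 0.068, 0.0987 and 0.0998 for the HSD17B10 calls, which were lost in 3, 4 and 8 of the 12 fits. The PCCB call was lost in 3, with 0.0815 without replicate 3 of SNU449-Axl- control. In the tables of pairs the Axl difference missed the threshold for HSD17B10 (limma adjusted p = 0.0568) and PCCB (limma adjusted p = 0.0578), and with spike-in centring the Rego effect on HSD17B10 in SNU449-Axl- (0.0646) and the difference of its Rego effects (0.159) did.

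Of 7 transporters of branched-chain amino acids sought, 5 were listed. With Rego in SNU449 limma called 1, against 7.81% of all genes, and 3 had an unadjusted p under 0.05, against 21.3%. The 5 had log2 differences above 0 with a median of 0.63. SLC7A5, SLC3A2 and SLC43A1 overlapped between these groups (limma adjusted p of 0.236, 0.447 and 0.0781). With Rego in SNU449-Axl- 4 of the 5 were above 0, with a median of 0.26, and limma called 0, against 4.35%, with 1 at an unadjusted p under 0.05, against 18.6%. The median was 0.45 with spike-in centring. SLC43A2, a plasma membrane carrier of large neutral amino acids, stood at 33, 26 and 51 in SNU449 control and at 76, 101 and 76 in SNU449 Rego-resistant cells, and at 59, 57 and 37 against 50, 49 and 53 in SNU449-Axl- cells. The groups separated in SNU449 and overlapped in SNU449-Axl-. SLC43A2 rose by 1.22 ± 0.246 with Rego in SNU449 (limma Benjamini-Hochberg adjusted p = 0.00403), and this exceeded the effect in SNU449-Axl- by 1.20 (limma adjusted p = 0.0478). The second call was lost in 10 of the 12 fits that left out 1 library, with an adjusted p of 0.157 without replicate 2 of SNU449-Axl- control. It was also lost in the other 12-library table (0.0528), with upper-quartile rescaling (0.0562) and with spike-in centring (0.136). SLC25A44, the mitochondrial carrier, stood at 115, 126 and 116 in SNU449 control, 170, 212 and 163 in SNU449 Rego-resistant, 183, 223 and 226 in SNU449-Axl- control and 181, 109 and 152 in SNU449-Axl- Rego-resistant cells. SNU449 control was lowest apart from 1 SNU449-Axl- Rego-resistant library. Axl loss in control cells gave 0.81 ± 0.21 (limma adjusted p = 0.023, lost in 5 of 12 fits, 0.119 without replicate 2 of SNU449-Axl- control). The Rego effects on SLC25A44 differed by 1.13 (limma adjusted p = 0.029), lost in 7 fits, with 0.11 without replicate 2 of SNU449-Axl- Rego-resistant, and with spike-in centring (0.126).

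The next list of 11 enzymes joined those that use or form glutamate or 2-oxoglutarate with PHGDH and PSPH of serine synthesis, which do neither in that pathway. The median log2 difference was -0.0282 with Rego in SNU449 (0.0282 with spike-in centring) and 0.09 in SNU449-Axl- (0.28 with spike-in centring). Limma called 1 of the 11 higher in each of these comparisons, against 7.81% and 4.35% of all genes in either direction, and the call in SNU449-Axl- was PSPH. An unadjusted p under 0.05 was found for 4 with Rego in SNU449, against 21.3% of all genes, and for 6 in SNU449-Axl-, against 18.6%. GLUL, glutamine synthetase, stood at 74, 46 and 66 in SNU449 control and 97, 100 and 118 in SNU449 Rego-resistant cells, without overlap. Its log2 difference was 0.77 ± 0.226 (limma Benjamini-Hochberg adjusted p = 0.0424). This call was lost in 8 of the 12 fits, with 0.271 without replicate 2 of SNU449 control, and in the table of the pair (0.0786).

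In the serine branch of this list, PHGDH had values of 336, 405 and 288 in SNU449 control and 135, 138 and 417 in SNU449 Rego-resistant cells, where replicate 3 stood apart. In SNU449-Axl- cells they were 175, 163 and 91 in control and 369, 323 and 269 in Rego-resistant libraries. PHGDH was lower in SNU449-Axl- control than in SNU449 control in all libraries. The log2 difference was -1.30 ± 0.345 (limma Benjamini-Hochberg adjusted p = 0.0269, lost in 4 of 12 fits, 0.176 without replicate 3 of SNU449-Axl- control). The Rego effects on PHGDH differed by -1.98 ± 0.487 (limma adjusted p = 0.0204, lost in 6 fits, 0.0812 without replicate 1 of SNU449 Rego-resistant). PSPH, which completes serine synthesis, was higher with Rego in SNU449-Axl-, at 99, 128 and 71 in control and 170, 208 and 223 in Rego-resistant libraries. Its difference was 1.04 ± 0.229 (limma adjusted p = 0.0139, lost in 3 fits, 0.0971 without replicate 2 of SNU449-Axl- Rego-resistant). IDH2, a mitochondrial isocitrate dehydrogenase that forms 2-oxoglutarate, stood at 344, 248 and 372 in SNU449 control and at 154, 140 and 164 in SNU449-Axl- control. These groups did not overlap, and the difference was -1.05 ± 0.21 (limma adjusted p = 0.00442).

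Pyruvate dehydrogenase, 2-oxoglutarate dehydrogenase and the glycine cleavage system also use DLD, and pyruvate dehydrogenase has kinases and phosphatases of its own. Of the 14 listed genes of these systems, 5 had a difference above 0 with Rego in SNU449, with a median of -0.20, and limma called 2, against 7.81% of all genes. In SNU449-Axl- 5 were also above 0, with a median of -0.0539 (12 and 0.14 with spike-in centring), and limma called 0, against 4.35%. An unadjusted p under 0.05 was found for 2 of the 14 there, against 18.6% of all genes, and for 3 with Rego in SNU449, against 21.3%. PDK1, a kinase that switches off pyruvate dehydrogenase, had values of 231, 226 and 326 in SNU449 control, 88, 91 and 91 in SNU449 Rego-resistant, 92, 93 and 112 in SNU449-Axl- control and 121, 119 and 68 in SNU449-Axl- Rego-resistant cells. SNU449 control stood above the other 9 libraries. Of the other groups, SNU449-Axl- Rego-resistant overlapped with both others, and SNU449 Rego-resistant lay just below SNU449-Axl- control. The PDK1 difference was -1.50 ± 0.232 with Rego in SNU449 (limma Benjamini-Hochberg adjusted p = 0.000428) and -1.37 ± 0.232 with Axl loss in control cells (limma adjusted p = 0.00119). Its Rego effects differed by -1.52 ± 0.328 (limma adjusted p = 0.0094). PDK3, a kinase of the same family, was at 189, 129 and 144 in SNU449 control and 81, 85 and 79 in SNU449 Rego-resistant cells. The difference of -0.89 ± 0.206 (limma adjusted p = 0.0112) was lost without replicate 1 of SNU449 control (0.0814).

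With Axl loss in control cells, PDHA1, the E1 subunit of pyruvate dehydrogenase, stood at 581, 600 and 606 in SNU449 and 907, 857 and 878 in SNU449-Axl-. The phosphatase PDP2 stood at 156, 145 and 167 against 104, 85 and 94. Neither gene overlapped between these groups. The log2 difference was 0.56 ± 0.165 for PDHA1 (limma Benjamini-Hochberg adjusted p = 0.0447) and -0.72 ± 0.194 for PDP2 (limma adjusted p = 0.0289). The PDHA1 call was lost in 11 of the 12 fits, with 0.132 without replicate 1 of SNU449 control, in the table of the pair (0.0962) and with upper-quartile rescaling (0.0538). The PDP2 call was lost in 5, with 0.16 without replicate 2 of SNU449-Axl- control, in the table of the pair (0.0685) and with spike-in centring (0.265).

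Leucine sensing upstream of mTORC1 was represented by 11 listed genes. With Rego in SNU449, 0 of the 11 had a log2 difference above 0, with a median of -0.23, and 1 was called, against 7.81% of all genes. With spike-in centring 1 of the 11 was above 0. The Rego effect in SNU449-Axl- was above 0 for 3, with a median of -0.14 (6 and 0.0538 with spike-in centring), and 1 was called, against 4.35%. With Axl loss 3 were above 0 in control cells (6 with spike-in centring) and 8 in Rego-resistant cells (11 with spike-in centring), and limma called 1 and 0, against 7.45% and 4.37%. RRAGA, a Rag GTPase that brings mTORC1 to the lysosome, stood at 480, 498 and 472 in SNU449 control and 293, 330 and 236 in SNU449 Rego-resistant cells. In SNU449-Axl- cells it stood at 320, 341 and 387 in control and 428, 345 and 448 in Rego-resistant libraries. The groups separated in SNU449 and overlapped in SNU449-Axl-. RRAGA differed by -0.77 ± 0.191 with Rego in SNU449 (limma Benjamini-Hochberg adjusted p = 0.0174), and its Rego effects differed by -0.98 ± 0.27 (limma adjusted p = 0.0372). The first call was lost in 4 of the 12 fits, with 0.117 without replicate 3 of SNU449 Rego-resistant, in the table of the pair (0.0566) and with spike-in centring (0.0794). The second was lost in 8, with 0.117 without replicate 1 of SNU449-Axl- Rego-resistant, and with spike-in centring (0.0538).

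RRAGC, the partner of RRAGA in the Rag heterodimer, had values of 202, 208 and 159 in SNU449 control and 140, 98 and 164 in SNU449 Rego-resistant cells. In SNU449-Axl- cells it had 109, 127 and 103 in control and 186, 222 and 215 in Rego-resistant libraries. The groups overlapped in SNU449 and separated in SNU449-Axl-, where Rego-resistant cells were higher. RRAGC rose by 0.87 ± 0.214 with Rego in SNU449-Axl- (limma Benjamini-Hochberg adjusted p = 0.0253) and differed by -0.74 ± 0.214 with Axl loss in control cells (limma adjusted p = 0.042). Its Rego effects differed by -1.39 ± 0.302 (limma adjusted p = 0.00951). The first call was lost in 6 of the 12 fits, with 0.156 without replicate 2 of SNU449-Axl- Rego-resistant. The second was lost in 9, with 0.166 without replicate 2 of SNU449 control, in the table of the pair (0.0646) and with spike-in centring (0.268).

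**Figure D3:**
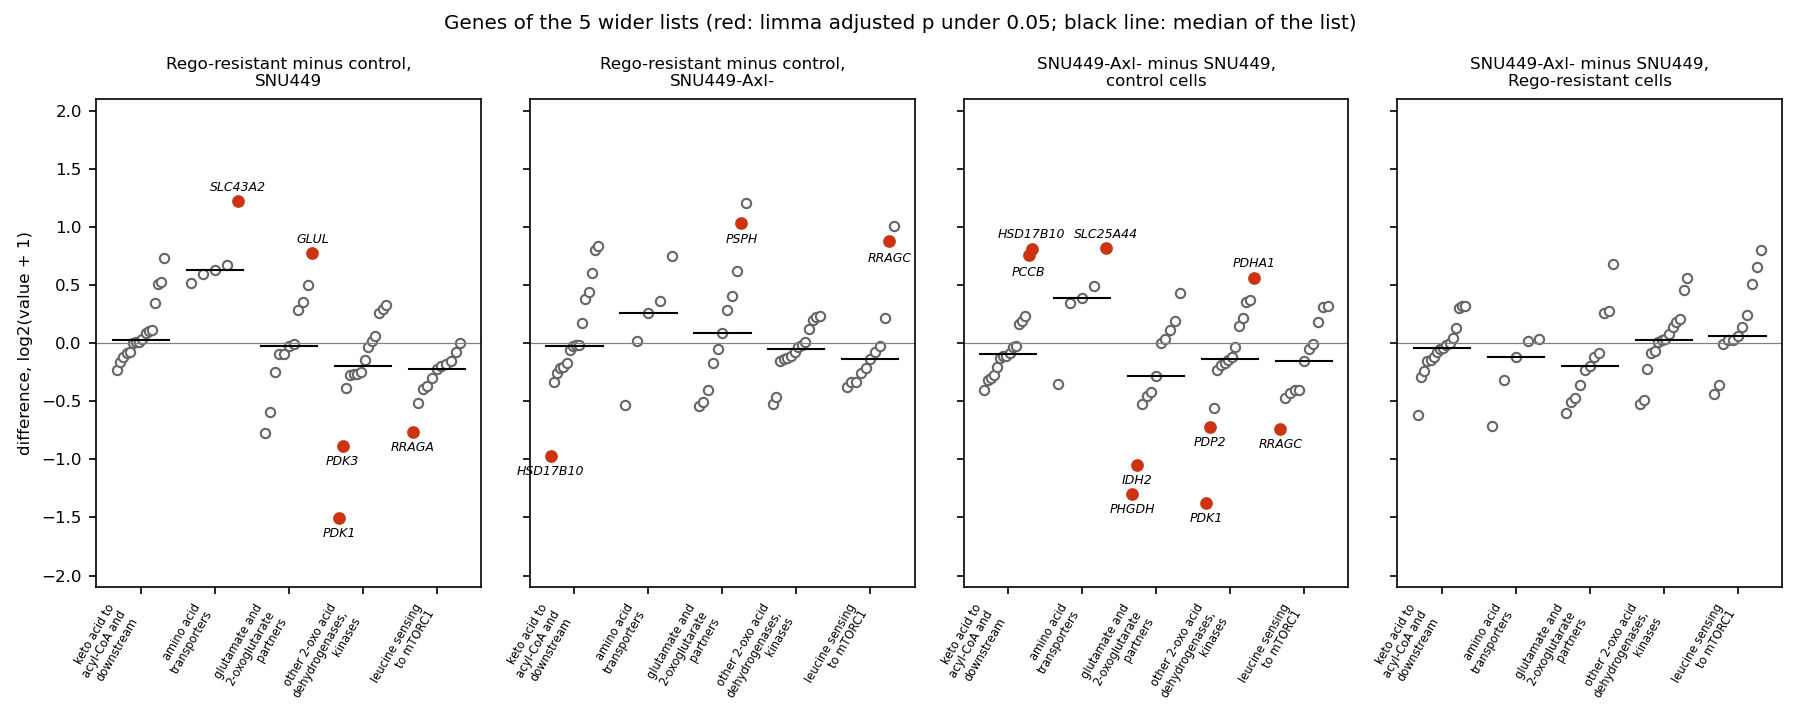
Log2 differences of the 57 listed genes of the 5 wider lists in the 4 comparisons between groups, with 1 point per gene, red where limma called it, and a line at the median of each list. SLC43A2 lay at 1.22 with Rego in SNU449, and PDK1 at -1.50 with Rego in SNU449 and -1.37 with Axl loss in control cells.

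The genes whose levels followed BCAT1 most closely over the 12 libraries were sought among the 1205 genes whose group means spanned at least 1 on the log2 scale. The 5 nearest were BTBD11 (r = 0.992), SALL1 (r = 0.982), UCHL1 (r = 0.981), GALNT7 (r = 0.979) and ENSG00000234147 (r = 0.976). These coefficients describe 12 libraries of 4 populations, in which 1 population stood apart, and no test was made. UCHL1 was at 1011 to 1366 in SNU449 control, at 21 and 22 in SNU449 Rego-resistant, and between 21 and 27 in SNU449-Axl- cells. BTBD11 was at 74 to 84 in SNU449 control and at 20 to 24 in the other libraries. SALL1 was at 56 to 76 against 20 to 22. As with BCAT1, each of the 5 was above its other libraries in SNU449 control.

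**Figure D4:**
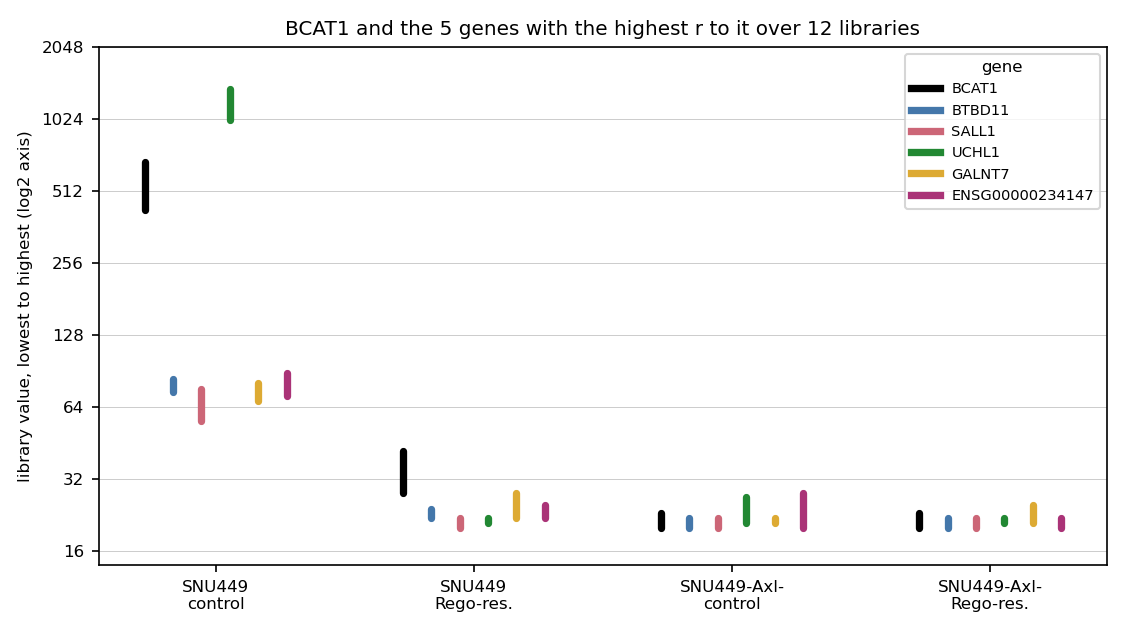
Library values of BCAT1 and of the 5 genes most like it on a log2 axis, with a bar from the lowest to the highest library of each group of 3. Each gene was highest in the SNU449 control libraries, where UCHL1 reached 1366 and BCAT1 678, and lay between 20 and 42 in all others.

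BCKDHA, the E1 subunit not listed in the tables used, lies on chromosome 19 at 41397808 to 41425002, and its start is 178.6 kb from that of AXL, the edited gene. BCAT2 lies 7.58 Mb from AXL on the same chromosome. Within 0.25 Mb of BCKDHA, 11 genes were listed, AXL among them. With Rego in SNU449, 9 of the 11 had a difference above 0 and 3 were called higher, against 7.81% of all genes called, with a median of 0.46. With Rego in SNU449-Axl-, 8 were below 0, the median was -0.23 (-0.0370 with spike-in centring) and limma called 0, against 4.35%. There, 3 had an unadjusted p under 0.05, against 18.6% of all genes. Such a p was found for 7 with Rego in SNU449 (21.3% of all genes). With Axl loss it was found for 4 in control cells (21.5%) and 8 in Rego-resistant cells (18.2%), AXL among them in both. With Axl loss in control cells, 9 were above 0 and 1, AXL, was called lower, against 7.45%, with a median of 0.26 (0.60 with spike-in centring). With Axl loss in Rego-resistant cells, 10 were below 0 and 3 were called lower, against 4.37%, with a median of -0.53. These 3 were AXL itself, the edited gene, HNRNPUL1 and EXOSC5. With spike-in centring 6 were below 0 and the median was -0.0581.

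EXOSC5, a subunit of the RNA exosome whose gene lies next to BCKDHA, stood at 109 to 146 in SNU449 control, 182 to 213 in SNU449 Rego-resistant, 165 to 175 in SNU449-Axl- control and 104 to 116 in SNU449-Axl- Rego-resistant cells. Thus it was higher with Rego in SNU449, while the SNU449-Axl- Rego-resistant libraries lay below their control. The difference was 0.71 with Rego in SNU449 (limma Benjamini-Hochberg adjusted p = 0.0226) and -0.88 with Axl loss in Rego-resistant cells (limma adjusted p = 0.00985), and the Rego effects differed by 1.35 (limma adjusted p = 0.00453). The first call was lost in 4 of 12 fits, with 0.109 without replicate 1 of SNU449 control, in the table of the pair (0.11) and with spike-in centring (0.0591). The second was lost in 3, with 0.0738 without replicate 2 of SNU449-Axl- Rego-resistant, and with spike-in centring (0.173).

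CYP2S1 (49 to 57 in SNU449 control, 90 to 108 in SNU449 Rego-resistant) and CCDC97 (83 to 103 and 137 to 176) also separated with Rego in SNU449. Their differences were 0.85 (limma Benjamini-Hochberg adjusted p = 0.0336) and 0.73 (limma adjusted p = 0.0317). The CYP2S1 call was lost in 6 of 12 fits, with 0.153 without replicate 2 of SNU449 control. The CCDC97 call was lost in 4, with 0.165 without replicate 3 of SNU449 Rego-resistant, in the table of the pair (0.0961) and with spike-in centring (0.0756). HNRNPUL1, an RNA-binding protein gene, stood at 1461 to 1761 in SNU449 Rego-resistant and 894 to 993 in SNU449-Axl- Rego-resistant cells, without overlap. It differed by -0.78 there (limma adjusted p = 0.0161), and its Rego effects differed by 0.94 (limma adjusted p = 0.0296). These calls were lost in 5 and 8 of 12 fits, with 0.116 and 0.104 without replicate 1 of SNU449-Axl- Rego-resistant, and with spike-in centring (0.266 and 0.175).

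**Figure D5:**
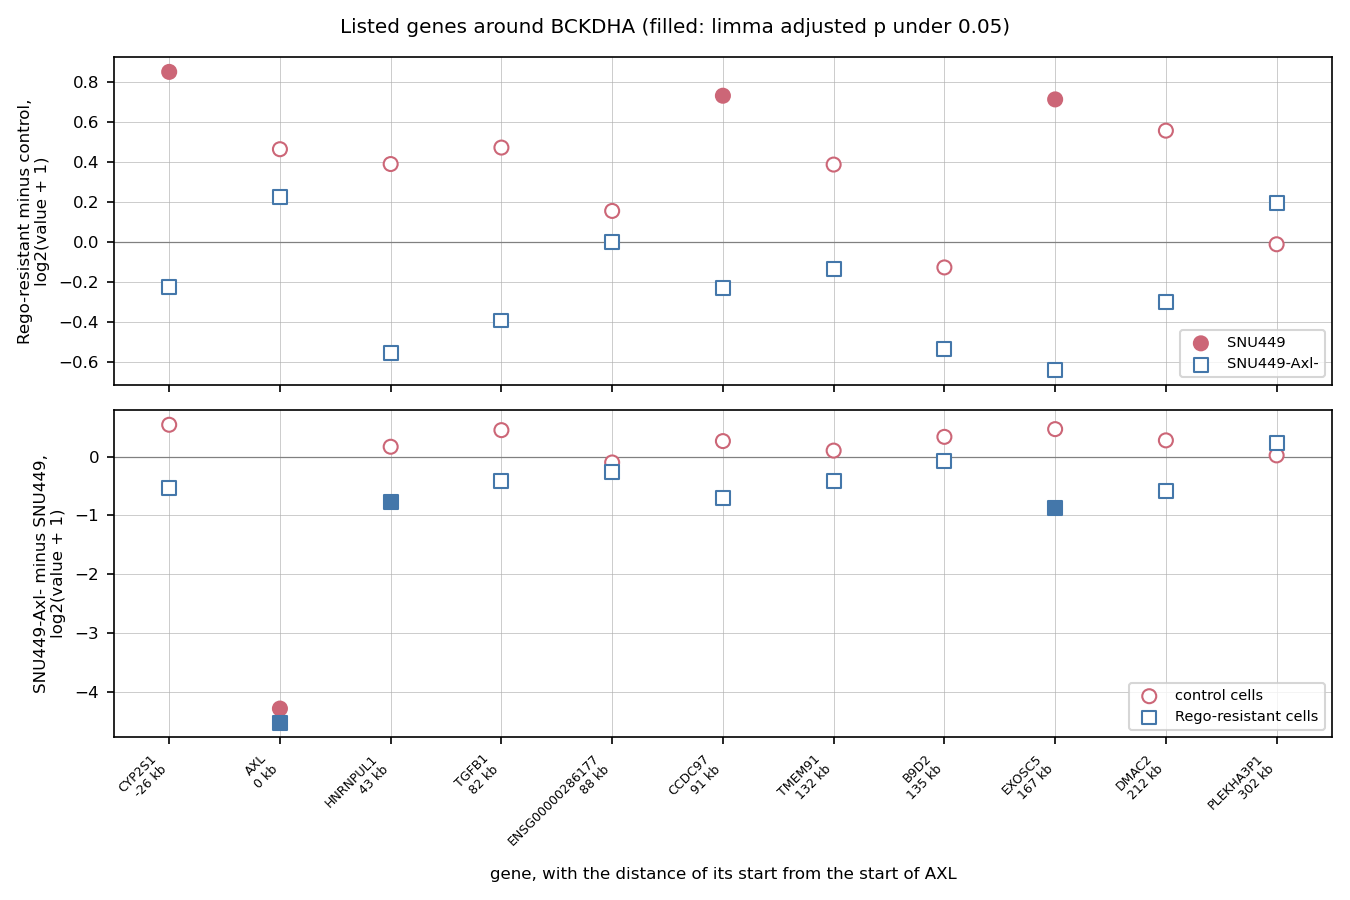
Log2 differences of the 11 listed genes within 0.25 Mb of BCKDHA in gene order, each with the distance of its start from that of AXL, for Rego (top) and Axl loss (bottom), filled where limma called the gene. AXL lay at -4.29 and -4.52 with Axl loss, and the median of the 11 genes was 0.46 with Rego in SNU449 and -0.53 with Axl loss in Rego-resistant cells (-0.0581 with spike-in centring).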

How the data were processed

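Reads of the 12 QuantSeq libraries were trimmed with cutadapt 4.0 and aligned to GRCh38 with STAR 2.5.3a by the authors. Their tables list, per gene, a deposited mean normalized count (signal) and deposited library values (score), which are whole numbers, 2 to the power of the variance-stabilized expression, with preparation differences taken out. The authors' fold changes, p-values and group averages in these tables were not used. Library depth was unknown.

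Of 8 tables, 2 over all libraries and 6 of pairs, the 12-library table by Axl was fitted over all 15601 genes with limma 3.58.1 in R 4.3.3 on log2(value + 1), with a trend, group means and replicate number as a block. No label links replicate number to preparation. The means of each replicate number deviated from the gene mean by a median of 0.0013 on the log2 scale, so the deposited values were already centred by replicate number, and the block accounts for the degrees of freedom that this used. Deviations of the 18 same-numbered pairs of libraries correlated between -0.542 and 0.0269 over 8189 genes. A minimum mean value of 5 removed 0 genes. The procedure was tested on simulated data. Alternatives were the other 12-library table, tables of pairs, no block, no trend, no filter, a mean normalized count of at least 50, a pseudocount of 16, upper-quartile rescaling, centring on 13 spike-in RNAs and leaving out each library.

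Named genes were all members, up to 4 called genes per list and comparison with the largest difference, the 5 genes most like BCAT1, AXL, and genes listed near BCKDHA. 1 gene was left out of the lists and not analysed here. The members and lists were chosen with earlier results of these data known.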

Additional observations from a re-analysis of the deposited data

Results flagged for a closer look

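For 9 named genes the limma test of the difference between the Rego effects in SNU449 and SNU449-Axl- cells passed the threshold, given here as the log2 effect in SNU449 minus that in SNU449-Axl-. The positive differences were 1.05 for HSD17B10, 1.20 for SLC43A2, 1.13 for SLC25A44, 0.94 for HNRNPUL1 and 1.35 for EXOSC5. The negative differences were -1.98 for PHGDH, -1.52 for PDK1, -0.98 for RRAGA and -1.39 for RRAGC. PDK1, RRAGC and EXOSC5 stayed past the threshold in each of the 12 fits that left out 1 library and under each alternative in which this difference was tested. PHGDH missed it in 6 of the 12 fits, with an adjusted p of 0.0812 without replicate 1 of SNU449 Rego-resistant. The other 5 missed it with spike-in centring and in 7 to 10 of the 12 fits. Without replicate 2 of SNU449-Axl- control the adjusted p was 0.0998 for HSD17B10 and 0.157 for SLC43A2. Without replicate 2 of SNU449-Axl- Rego-resistant it was 0.11 for SLC25A44, and without replicate 1 it was 0.117 for RRAGA and 0.104 for HNRNPUL1.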

How the results depend on the processing

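Called genes numbered 1219, 678, 1163 and 682 for Rego in SNU449, Rego in SNU449-Axl-, Axl loss in control and Axl loss in Rego-resistant cells, and 916 for the difference of the Rego effects. With no replicate block in the model they were 2175, 1552, 2182, 1503 and 1826. That fit does not count the degrees of freedom used by the centring on replicate number, so its p-values are too low. In the tables of pairs the called genes numbered 603 for Rego in SNU449, 603 for Axl loss in control and 1160 for Axl loss in Rego-resistant cells. The difference of the Rego effects cannot be formed from tables of pairs, and BCAT1 is not listed in that of the SNU449-Axl- groups. Genes with a mean normalized count of at least 50 gave 746 for Rego in SNU449 and 450 for Axl loss in Rego-resistant cells, out of 8189 tested.

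Centring on the spike-in RNAs moved the median of all genes by 0.0564, 0.194, 0.335, 0.473 and -0.137. Called genes then split into 555 higher and 322 lower for Rego in SNU449 (673 and 546 as deposited), 669 and 89 for Rego in SNU449-Axl- (396 and 282), and 204 and 438 for the difference (461 and 455). With Axl loss 2468 genes were called in control cells, 2307 higher and 161 lower (628 and 535 as deposited), and 4976 in Rego-resistant cells, 4927 higher and 49 lower (381 and 301). Uncalled differences then turned positive: with Rego in SNU449-Axl- DBT 0.15, DLD 0.0491, BCKDK 0.0726 and PPM1K 0.15, with Axl loss in control cells BCKDHB 0.27, DBT 0.20, DLD 0.13 and BCKDK 0.16, and with Axl loss in Rego-resistant cells DBT 0.26, DLD 0.0397, BCKDK 0.21 and IVD 0.26.

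Leaving out 1 library gave 740 to 1299, 205 to 891, 540 to 1275, 219 to 826 and 523 to 922 called genes. Rego in SNU449 gave 740 without SNU449 control replicate 2, and 780 and 741 without SNU449 Rego-resistant replicates 2 and 3. Rego in SNU449-Axl- gave 243 without SNU449-Axl- control replicate 2 and 307, 205 and 363 without Rego-resistant replicates 1, 2 and 3. Axl loss in control cells gave 708 and 740 without SNU449 replicates 1 and 2 and 540 without SNU449-Axl- replicate 2. Axl loss in Rego-resistant cells gave 374, 335 and 394 without SNU449 replicates 1, 2 and 3 and 275, 219 and 365 without those of SNU449-Axl-. The difference of the effects gave 532 without SNU449-Axl- control replicate 2 and 583 and 523 without SNU449-Axl- Rego-resistant replicates 1 and 2.

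BCAT1 lay at the lowest level in both SNU449-Axl- groups, so its difference there says nothing on stability. It was -0.07 to 0.07 over left-out libraries and 0.19 with spike-in centring, which is that setting's shift of all genes. Of the 57 wider genes, 5, 3, 9, 0 and 7 were called, which became 12, 8, 10, 5 and 10 with no replicate block, 3, 7, 4 and 3 in the tables of pairs, and 4, 6, 11, 14 and 3 with spike-in centring. Over left-out libraries these counts ran from 4 to 5, 0 to 6, 2 to 9, 0 to 1 and 2 to 8. Uncalled members changed sign over left-out libraries. With Rego in SNU449-Axl- the ranges were BCKDHB -0.0795 to 0.21, DBT -0.20 to 0.15, BCKDK -0.32 to 0.10, PPM1K -0.18 to 0.0304 and IVD -0.0412 to 0.31. With Axl loss in control cells they were BCKDHB -0.27 to 0.14, DBT -0.34 to 0.0706, BCKDK -0.40 to 0.0297 and PPM1K -0.0241 to 0.18, and in Rego-resistant cells BCKDHB -0.0640 to 0.23 and DBT -0.56 to 0.0805. Other uncalled differences moved without a change of sign. Among them, BCAT2 ran from -0.78 to -0.0369 with Rego in SNU449-Axl-. With Axl loss in control cells BCAT2 ran from 0.0191 to 0.76 and IVD from -0.61 to -0.26. In Rego-resistant cells DLD ran from -0.72 to -0.18 with Axl loss. The cause was not tested. Library depth was unknown, and values near the lowest level limit any difference below it.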
